A study of Mus musculus with 6 samples.

Results

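The elastic fibre and microfibril genes described here are Eln, Fbn1, Fbn2, Fbln5, Efemp2, Emilin1, Mfap4, Mfap5, Lox and Loxl1. They were chosen by gene symbol, for the place of their proteins in the elastic fibre, and all 10 were found among the 55487 genes of the count table. Bulk RNA-seq was made from the aortas of 6 male mice on a C57BL/6 background, 3 controls and 3 inducible smooth muscle-specific Prdm16 knockout (iSM KO) mice. Both groups carried Myh11-CreERT2, a tamoxifen-activated Cre recombinase expressed from a smooth muscle myosin promoter. The control mice were Prdm16 W/W, so that Cre and tamoxifen were shared by both groups, and the iSM KO mice were Prdm16 F/F with loxP sites around exon 9. Tamoxifen was given at 1 mg per mouse per day over a course of 10 days from 8 weeks of age, and the mice were harvested 60 days after a tamoxifen washout of 2 weeks. The adventitia was removed before RNA was extracted, and the Cre acts in smooth muscle cells only, so that Prdm16 is left intact in the other cells of the wall.

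Elastic fibres give the aorta its recoil. Smooth muscle cells secrete tropoelastin, the soluble elastin monomer, which is laid on a scaffold of fibrillin microfibrils with the help of fibulins, and lysyl oxidases then oxidise its lysine side chains so that neighbouring monomers become covalently joined. Most elastin is made around birth and lasts for much of the life of the animal, so that the mRNA of an adult aorta reports current synthesis and not the amount of fibre in the wall.

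The 4 stretches of the Eln coding sequence shown first hold the residues on which lysyl oxidases act. Capitals mark codons for a lysine, 2 or 3 alanines and a second lysine, the arrangement found in the cross-linking domains of elastin. The mouse Eln reading frame of 860 codons held 12 such places, and none of the other 9 members had one. In the GRCm38 build all lie on chromosome 5, minus strand, each inside 1 coding exon, and are written 5′ to 3′ in the sense of the mRNA from the GENCODE transcript.
Eln exon 7 (chr5:134729645-134729675): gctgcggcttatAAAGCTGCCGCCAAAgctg
Eln exon 18 (chr5:134718990-134719028): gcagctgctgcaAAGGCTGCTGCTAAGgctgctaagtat
Eln exon 30 (chr5:134707822-134707860): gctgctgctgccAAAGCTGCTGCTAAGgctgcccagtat
Eln exon 32 (chr5:134706566-134706593): gctgcagctgctAAGGCAGCCAAAtatg

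The second set shows where members of the microfibril and its elastin interface spell arginine, glycine and aspartate, the tripeptide read by several integrins at the cell surface. It is shown because genes of integrin subunits are among the related genes described at the end. Among them the mean of Itga5 was higher and that of Itga8 lower in iSM KO. Capitals mark the 3 codons. Fbn1, Fbln5, Emilin1, Mfap4 and Mfap5 each held 1 such place and Fbn2 held 2, whereas Eln, Efemp2, Lox and Loxl1 held none. A match of these codons is a description of the sequence, and whether each place is bound in the aorta was not measured. The Mfap5 stretch spans an exon junction and so has no single genomic interval.
Fbn1 codon 1543 (chr2:125345952-125346002, minus strand, exon 38): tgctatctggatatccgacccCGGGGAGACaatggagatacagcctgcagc
Fbln5 codon 67 (chr12:101809906-101809956, minus strand, exon 4): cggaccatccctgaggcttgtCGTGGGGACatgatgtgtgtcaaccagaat
Emilin1 codon 578 (chr5:30918127-30918177, plus strand, exon 4): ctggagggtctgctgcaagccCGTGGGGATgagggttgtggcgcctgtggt
Mfap4 codon 28 (chr11:61485775-61485805, plus strand, exon 2): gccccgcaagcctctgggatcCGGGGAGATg
Mfap5 codon 30 (plus strand of chromosome 6): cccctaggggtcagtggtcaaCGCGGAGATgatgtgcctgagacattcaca

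The encoded proteins differed in make-up. Glycine, alanine, valine and proline made up 76.9% of the residues encoded by Eln, against 22.6% to 35.6% in the other 9 members. Cysteine, which forms the disulphide bonds of the calcium-binding EGF-like modules of fibrillins and fibulins, made up 12.6% of the residues of Fbn1, 12.5% of Fbn2, 8.89% of Fbln5 and 9.09% of Efemp2, and 0.233% of Eln.

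Depth ranged from 24911612 to 40460444 counts per library, with control 3 the shallowest. Protein-coding genes held 59.0% of the counts of control 3, against 64.6% to 67.6% in the other libraries. Prdm16 itself measured 179 to 223 CPM (counts-per-million, scaled with TMM factors) in the controls and 79.8 to 113 CPM in the iSM KO aortas, and the groups did not overlap. Its log2 fold change was -1.03 ± 0.14 (SE), with an adjusted p of 0.00264 in edgeR's quasi-likelihood test, with p-values adjusted by Benjamini and Hochberg's method. This count covers the whole gene, so that RNA still made from the deleted allele is part of it. The summed level of 10 smooth muscle markers was 24082 to 28863 CPM in the controls and 25673 to 28419 CPM in the iSM KO aortas.

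Transcripts of 9 of the 10 members were present at 40.0 CPM or more in every library, and for 8 of these the difference between iSM KO and control did not pass the test. Emilin1, at the interface of elastin and microfibrils, was the 1 member that passed, and it fell by 20.9%. Fbn1, the main microfibril gene, and Lox, a cross-linking enzyme, had lower means in iSM KO without passing. Eln did not pass in either direction. Fbn2, the fibrillin of embryonic tissues, was at or under 2 counts in every library and was not tested, since it was below the filter on low counts.

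Of the 9 tested members, 0 were higher and 1 was lower at a false discovery rate (FDR) under 0.05 in edgeR's quasi-likelihood test. Over all 16565 tested genes, 7.56% passed, 4.26% higher and 3.30% lower. At an unadjusted p under 0.05 there were 0 higher and 3 lower members, where 22.1% of all tested genes reached that level in either direction. DESeq2 and limma-voom each called 2 members, Emilin1 and Fbn1, and 0 higher. The estimate of no member reached a factor of 2, a size passed with an FDR under 0.05 by 2.78% of the tested genes. The control and iSM KO values of 2 members, Fbn1 and Emilin1, did not overlap, and the same held for 27.9% of all tested genes, with 13.0% lower in iSM KO. The median log2 fold change of the 9 members was -0.08, and that of all tested genes was -0.01.

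**Figure D1:**
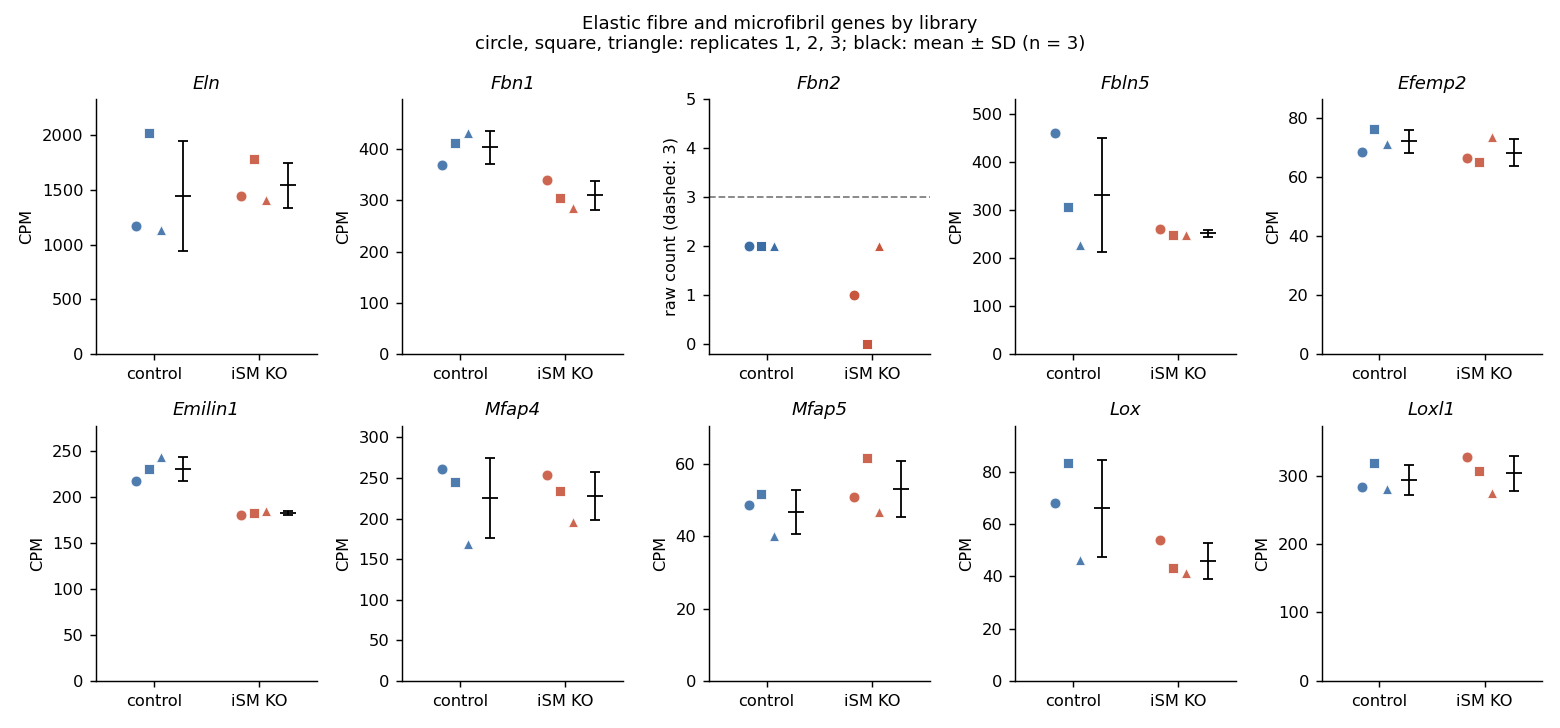
CPM in each library for the 9 tested members and raw counts for Fbn2, controls in blue and iSM KO in red, with replicates 1, 2 and 3 as circle, square and triangle and the mean ± SD (n = 3) in black, every CPM axis starting at 0. The 3 iSM KO values of Emilin1, 180 to 184 CPM, sit below all controls, the single high control of Eln is control 2 at 2021 CPM, and the Fbn2 counts lie under the dashed line at 3 counts.

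The members were compared with each other only per length, as TPM, the share of transcripts after correction for gene length, over protein-coding genes, with the union of each gene's exons as its length. In the controls Eln led at 1089 ± 383 TPM (SD, n = 3). Mfap4 followed at 712 ± 131 TPM and Loxl1 at 545 ± 45.8 TPM. The ranges of Mfap4 and Loxl1 overlapped over the controls, although Mfap4 was the higher in all 6 libraries.

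Fbln5 at 290 ± 91.3 TPM and Emilin1 at 286 ± 29.1 TPM could not be ordered, since control 1 had more Fbln5 and the other controls more Emilin1. Fbn1 stood at 204 ± 25.1 TPM, below Emilin1 in every library. Efemp2 at 117 ± 9.56 TPM overlapped with Lox at 84.1 ± 22.6 TPM, and Lox with Mfap5 at 79.5 ± 8.58 TPM.

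With the longest transcript as the length in place of the union of exons, the control mean of Eln rose to 1799 TPM and the neighbours Fbln5 and Emilin1, and Lox and Mfap5, changed places. The Eln level per length therefore depends on how much of its annotated exon sequence is used. The 10 members together made up 3004 to 3987 TPM per library. Eln supplied 26.1% to 38.4% of that sum, with the largest shares in control 2 and iSM KO 2.

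**Figure D2:**
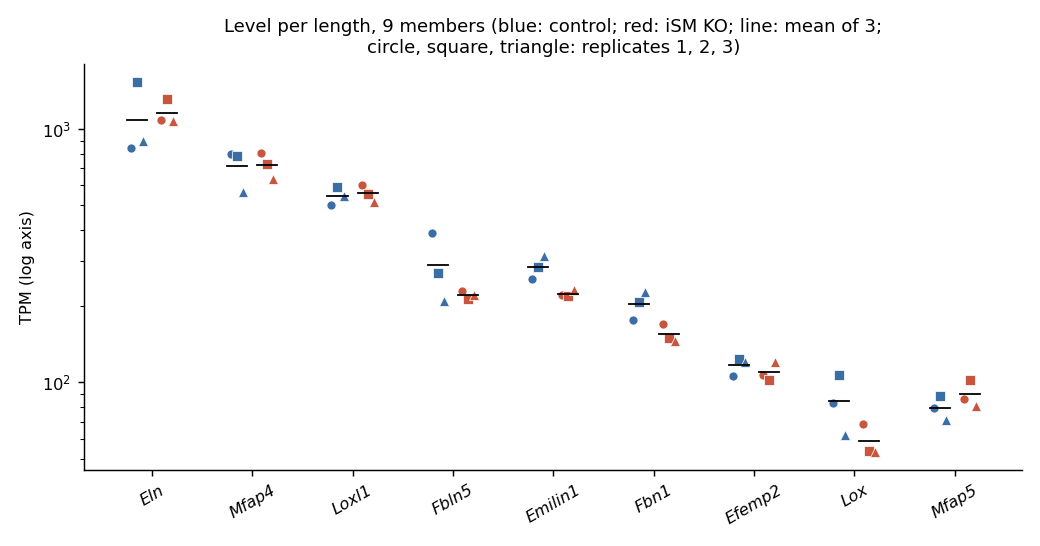
Level per length of 9 members in each library, in TPM over protein-coding genes on a log axis, ordered by control mean, controls in blue and iSM KO in red with the mean of 3 as a line. Eln leads, Mfap4 and Loxl1 follow, and Lox and Mfap5 are lowest, and Fbn2 is left out because its counts run from 0 to 2.

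Eln (ENSMUSG00000029675; chr5:134702593-134747323, minus strand of GRCm38) encodes tropoelastin. The controls measured 1167, 2021 and 1137 CPM. The iSM KO aortas measured 1443, 1779 and 1407 CPM. All 3 iSM KO values fell inside the wide range of the controls, which was set by the single high control 2.
The log2 fold change was 0.10 ± 0.22 (SE, 95% interval -0.39 to 0.59), with an adjusted p of 0.831 in edgeR's quasi-likelihood test. Without control 2 it was 0.42 with an adjusted p of 0.0874, and without control 1, control 3 or iSM KO 2 it was -0.03, -0.05 and -0.02. The sign of the Eln difference thus turned on single mice.

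Fbn1 (ENSMUSG00000027204; chr2:125300594-125507993, minus strand) encodes fibrillin-1, the rod of the microfibril and the gene altered in Marfan syndrome. It measured 368, 412 and 430 CPM in the controls. It measured 340, 304 and 285 CPM in the iSM KO aortas. Every iSM KO value was below every control, with a gap between iSM KO 1 and control 1 that was smaller than the range within either group.
The log2 fold change of Fbn1 was -0.38 ± 0.10 (95% interval -0.61 to -0.16), and its adjusted p of 0.0513 in edgeR's quasi-likelihood test missed the threshold. The adjusted p was 0.0057 in DESeq2, 0.0431 in limma-voom, 0.0458 in edgeR with upper quartile factors, 0.0244 in edgeR without the filter on low counts and 0.0446 without control 1. Fbn1 missed the threshold in edgeR without control 2 (0.0874), control 3 (0.116), iSM KO 1 (0.0712), iSM KO 2 (0.203) or iSM KO 3 (0.143). It also missed in edgeR with total counts alone (0.0703) and with a block for the replicate number (0.132). The lower level of Fbn1 had the same sign in every alternative and fell on both sides of the threshold.

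Fbn2 (ENSMUSG00000024598) on chromosome 18 encodes fibrillin-2, a microfibril protein of the embryo. It had 2 counts in each control and 1, 0 and 2 counts in the iSM KO aortas. With the floor set at 3 counts per library, no fold between the groups can be given. Per length, Fbn1 was at least 3729-fold above the floor of Fbn2 in every library. That floor is a chosen setting, and the counts of Fbn2 below it were too few to give its level.

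Mfap4 (ENSMUSG00000042436; chr11:61485431-61488900, plus strand) encodes a fibrinogen-domain glycoprotein that binds fibrillin-1 and tropoelastin. The controls measured 261, 245 and 169 CPM. The iSM KO aortas measured 254, 234 and 196 CPM. In both groups replicate 3 was the lowest, and the groups overlapped almost fully.
Its log2 fold change was 0.01 ± 0.16 (95% interval -0.35 to 0.38), with an adjusted p of 0.970 in edgeR's quasi-likelihood test. The sign was not fixed, being -0.16 without control 3 and 0.14 without control 1.

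Mfap5 (ENSMUSG00000030116; chr6:122505845-122529290, plus strand) encodes MAGP-2, a small protein bound along microfibrils. It measured 48.7, 51.7 and 40.0 CPM in the controls. It measured 51.0, 61.8 and 46.7 CPM in the iSM KO aortas. The highest value was that of iSM KO 2 and the lowest that of control 3, and the groups overlapped.
The log2 fold change of 0.18 ± 0.13 (95% interval -0.11 to 0.47) had an adjusted p of 0.444 in edgeR's quasi-likelihood test. Mfap5 had the largest positive estimate of the 9 tested members.

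Emilin1 (ENSMUSG00000029163; chr5:30913402-30921277, plus strand) encodes a glycoprotein found where elastin meets the microfibrils, and mice without it have raised blood pressure. The controls measured 218, 230 and 244 CPM. The iSM KO aortas measured 180, 182 and 184 CPM. The groups did not overlap, and the coefficient of variation was 1.08% in iSM KO and 5.66% in the controls (n = 3 each).
Emilin1 fell by 0.34 ± 0.08 on the log2 scale (95% interval -0.51 to -0.17), with an adjusted p of 0.0296 in edgeR's quasi-likelihood test. The adjusted p was 0.00217 in DESeq2 and 0.0273 in limma-voom.
The call was lost without control 3 (adjusted p = 0.0563 in edgeR), iSM KO 1 (0.129), iSM KO 2 (0.142) or iSM KO 3 (0.0747), and with total counts alone as the scaling (0.0535), while the log2 fold change stayed between -0.37 and -0.30. Transcripts of Emilin1 share stretches of 105 to 150 bases at 95% identity or more with transcripts of 7 other genes, and how such reads were divided is not given in the sources used here.

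Fbln5 (ENSMUSG00000021186; chr12:101746565-101819055, minus strand) encodes fibulin-5, which binds tropoelastin and links it to cells and microfibrils. The controls measured 461, 306 and 226 CPM. The iSM KO aortas measured 260, 248 and 248 CPM. The controls were widely spread, with a coefficient of variation of 36.0% against 2.84% in iSM KO, and the iSM KO values lay between control 3 and control 2.
The log2 fold change was -0.39 ± 0.21 (95% interval -0.88 to 0.09), with an adjusted p of 0.314 in edgeR's quasi-likelihood test. Control 1 carried much of it, since without that library the log2 fold change of Fbln5 was -0.08.

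Efemp2 (ENSMUSG00000024909; chr19:5473954-5482517, plus strand) encodes fibulin-4, a partner of lysyl oxidase in elastic fibre assembly. It measured 68.7, 76.6 and 71.4 CPM in the controls. It measured 66.4, 65.2 and 73.6 CPM in the iSM KO aortas. The groups overlapped, through iSM KO 3.
The log2 fold change was -0.08 ± 0.08 (95% interval -0.26 to 0.10), with an adjusted p of 0.610 in edgeR's quasi-likelihood test.

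Lox (ENSMUSG00000024529) on chromosome 18 encodes lysyl oxidase, which acts on the lysines of elastin shown above and on those of collagens. The controls measured 68.1, 83.5 and 46.4 CPM. The iSM KO aortas measured 53.8, 43.0 and 41.2 CPM. Controls 1 and 2 were above all iSM KO values, and control 3 lay among them.
Lox had the largest estimate of any tested member, a log2 fold change of -0.52 ± 0.19 (95% interval -0.96 to -0.09), with an unadjusted p of 0.0241 and an adjusted p of 0.152 in edgeR's quasi-likelihood test. Without control 3 the log2 fold change was -0.72 with an adjusted p of 0.0301, and without control 2 it was -0.32 with an adjusted p of 0.299. With no filter on low counts the adjusted p was 0.0247. The difference in Lox thus passed or missed the threshold with the library left out and with the filter.

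Loxl1 (ENSMUSG00000032334; chr9:58287738-58313186, minus strand) encodes lysyl oxidase-like 1, a relative of Lox needed to maintain elastic fibres in the adult. It measured 283, 319 and 280 CPM in the controls. It measured 327, 307 and 275 CPM in the iSM KO aortas. The groups overlapped, and the highest and the lowest value were both from iSM KO mice.
Its log2 fold change was 0.04 ± 0.10 (95% interval -0.17 to 0.26), with an adjusted p of 0.824 in edgeR's quasi-likelihood test, and it was -0.02 without iSM KO 1.

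**Figure D3:**
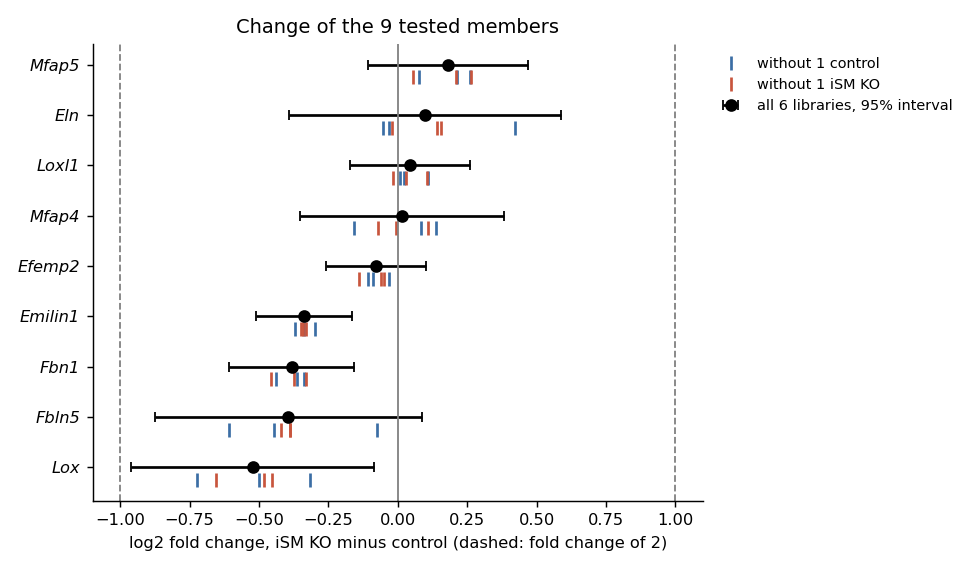
Log2 fold change (iSM KO minus control) of the 9 tested members with all 6 libraries, as black points with 95% intervals, and after leaving out each control (blue ticks) or each iSM KO library (red ticks), with dashed lines at a fold change of 2. The intervals of Emilin1, Fbn1 and Lox lie below 0, and the ticks of Eln, Mfap4 and Loxl1 fall on both sides of 0.

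The 95% intervals of all 9 tested members lay inside a change of 2-fold, from a lowest bound of -0.96 for Lox to a highest bound of 0.59 for Eln on the log2 scale. These members were therefore measured closely enough for a change beyond that size to lie outside their intervals. The intervals of Eln, Fbln5, Efemp2, Mfap4, Mfap5 and Loxl1 held both signs. Those of Emilin1, Fbn1 and Lox held negative values only, although Fbn1 and Lox did not pass after adjustment and the groups of Lox overlapped. Control 3 had the lowest control value for 6 of the 9 members and iSM KO 3 the lowest iSM KO value for 7. Control 2 had the highest control value for 5.

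Ratios of paired members within a library do not depend on how the libraries were scaled. The log2 ratio of Lox to Loxl1 counts was -2.06, -1.93 and -2.59 in the controls and -2.60, -2.84 and -2.74 in the iSM KO aortas. All 3 iSM KO ratios were below the controls, the nearest pair being control 3 and iSM KO 1. The mean difference was -0.53 with p = 0.1 in a two-sided exact permutation test, the smallest p that 3 mice against 3 can give, and 0.5 after adjustment over the 5 ratios tested.

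The Eln to Fbn1 log2 ratio was 1.67, 2.30 and 1.40 in the controls and 2.08, 2.55 and 2.31 in the iSM KO aortas, and control 2 lay among the iSM KO values. Its mean difference of 0.53 had an exact permutation p of 0.2 (adjusted 0.5). The differences were -0.25 for Fbln5 to Efemp2 (exact permutation p = 0.7, adjusted 0.7) and -0.15 for Mfap4 to Mfap5 (exact permutation p = 0.4, adjusted 0.5), with overlapping groups. The Fbn1 to Fbn2 ratio differed by 0.89 (exact permutation p = 0.3, adjusted 0.5), but with 0 to 2 counts of Fbn2 it rests on the 0.5 added to each count. No ratio could reach an adjusted p under 0.05 at this number of mice.

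**Figure D4:**
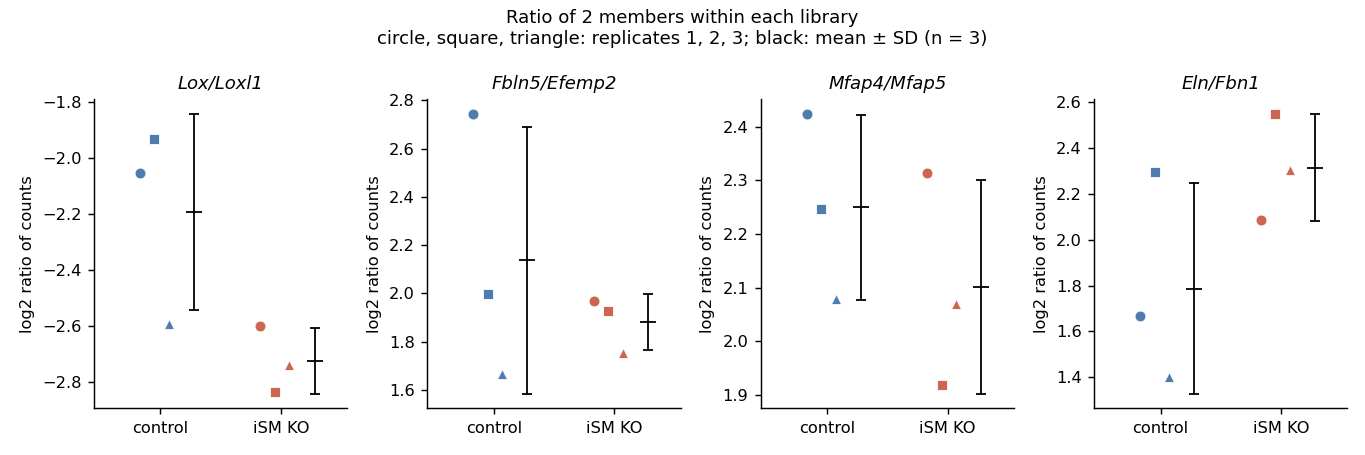
Log2 ratio of the counts of paired members within each library, controls in blue and iSM KO in red, with replicates 1, 2 and 3 as circle, square and triangle and the mean ± SD (n = 3) in black, on axes that do not start at 0. Only the Lox to Loxl1 panel of the 4 shows groups that do not overlap, with iSM KO lower.

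Markers of other cells of the wall were measured beside the members, since in bulk tissue fewer cells of a type and less RNA per cell cannot be told apart. All 10 adventitial fibroblast markers had log2 fold changes below 0, 2 of them past the FDR in edgeR (Scara5 at -1.46 and Clec3b at -1.56). DESeq2 called 4 of the 10 and limma-voom 0, and edgeR without the filter on low counts called 9. The count in edgeR was 0 without control 1, control 3, iSM KO 1 or iSM KO 2, 5 without iSM KO 3 and 8 without control 2, and the median log2 fold change of -0.78 became -0.43 without control 1. The summed level of the 10 was 242 to 451 CPM in the controls and 166 to 263 CPM in iSM KO, and none of them was at 0.

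Control 1, the control with the most Fbln5, also had the highest sum of fibroblast markers. Emilin1 (218 CPM) and Fbn1 (368 CPM) had their lowest control values in that same library. Control 2, which had the least fibroblast marker RNA among the controls, had the most Eln and Lox. The part of these cells in the lower values of Emilin1, Fbn1, Fbln5 and Lox was not tested.

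All 8 endothelial markers also had log2 fold changes below 0, with sums of 493 to 1006 CPM in the controls and 255 to 776 CPM in iSM KO. Past the FDR were 0 of 8 in edgeR, DESeq2 and limma-voom, and 1 at an unadjusted p under 0.05. Without iSM KO 3, 3 endothelial markers passed in edgeR and the median log2 fold change went from -0.66 to -1.19. Of the 8 macrophage markers 0 passed in any of the 3 tools and 1 had an unadjusted p under 0.05, with sums of 27.3 to 29.6 CPM in the controls and 12.1 to 32.9 CPM in iSM KO. The high value was that of iSM KO 3, and without it 5 macrophage markers passed in edgeR, all lower, and the median log2 fold change went from -0.54 to -1.26.

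Of 7 tested adipocyte markers 5 were lower at the FDR in edgeR, 5 in DESeq2 and 1 in limma-voom. The count in edgeR was 2 without control 2 or control 3, 1 without iSM KO 1, 0 without iSM KO 2, 3 without iSM KO 3 and 7 of 8 without control 1, where Lep also passed the filter. Plin4, which was singled out after its values were seen, held most of the sum of the 8 listed markers, at 442 to 478 CPM in the controls and 454 to 546 CPM in iSM KO. The other 7, the untested Lep included, summed to 17.3, 85.6 and 74.6 CPM in the controls and 13.6, 11.1 and 12.3 CPM in iSM KO, all of the latter below the controls.

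Smooth muscle markers had 3 of 10 higher (Myocd, Ldb3 and Des) and 1 of 10 without iSM KO 1. Striated muscle markers had 1 of 4 tested higher (Ryr2) and 0 without control 1, control 3, iSM KO 1 or iSM KO 2. With upper quartile factors the count was also 0. The other 3, Myh6 at -0.88, Actc1 at -1.32 and Ckm at -0.40, did not pass, and the median log2 fold change of the 4 was -0.64. Control means were 127 CPM for Ryr2 and 0.980, 1.27 and 2.63 CPM for Myh6, Actc1 and Ckm. Schwann cell markers had 0 of 4 called by any of the 3 tools or at an unadjusted p under 0.05, and the 4 mesothelial markers were below the filter. Their part in the members' values was not tested.

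Other genes of the elastic fibre were read from the same test. Of 64 tested genes in 5 lists of elastic fibre structure, assembly and turnover, 12 passed the FDR in edgeR's quasi-likelihood test (18.75%, against 7.56% of all tested genes), 10 higher and 2 lower, and 3 of them changed by more than 2-fold. The lists were chosen with earlier results of these data known, so the difference between these shares is not a test of the lists.

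Among 21 other structural and cross-linking genes, 4 were higher and 0 lower, and the median log2 fold change was -0.04. Mfap2, which encodes MAGP-1, the close relative of Mfap5, measured 4.84, 4.35 and 4.99 CPM in the controls and 7.83, 8.65 and 9.47 CPM in iSM KO, without overlap. It rose by 0.88 ± 0.13 on the log2 scale (adjusted p = 0.00551 in edgeR). Ltbp1 and Ltbp2, whose proteins sit on fibrillin microfibrils, rose by 0.62 ± 0.10 (0.00554) and 0.84 ± 0.10 (0.00157), and all 3 of these calls held in each of the 6 fits that left out a library.
Thsd4, which encodes an ADAMTS-like protein that promotes fibrillin-1 assembly, rose by 0.43 ± 0.09 (0.0182), and its call was lost without iSM KO 1 (0.0900) or iSM KO 2 (0.106). The other 17 did not pass, among them Ltbp4 at -0.04 and Efemp1 at -0.88. Mfge8, also among the 17, was lower at -0.30 without overlap (adjusted p = 0.0625 in edgeR, 0.00749 in DESeq2). DESeq2 and limma-voom each called 5 genes of this list. Over the 21 tested genes of this list, 10 log2 fold changes were above 0 and 11 below, with Fbln2 at -0.62 among the latter.

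Of 8 tested ADAMTS and ADAMTS-like genes, whose products include fibrillin-binding proteins, 2 were higher and 1 lower. Adamtsl3 measured 107, 127 and 130 CPM in the controls and 39.9, 43.9 and 47.5 CPM in iSM KO. It fell by 1.47 ± 0.10 on the log2 scale (adjusted p = 9.33e-05 in edgeR), with no overlap and in all 6 fits that left out a library. Adamtsl2, which binds fibrillin-1 and is altered in geleophysic dysplasia, rose by 1.21 ± 0.30 (0.0410), and Adamtsl1 rose by 0.84 ± 0.19 (0.0302).
The call of Adamtsl2 was lost without control 3 (0.110), iSM KO 1 (0.0743), iSM KO 2 (0.103) or iSM KO 3 (0.101). That of Adamtsl1 was lost without control 1 (0.0637), control 3 (0.0544), iSM KO 2 (0.0887) or iSM KO 3 (0.0756).

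Of 17 tested genes for the maturation and cell-surface handling of elastin and the lysyl oxidases, 1 passed. Itga5, the α5 integrin subunit that pairs with Itgb1 and reads arginine-glycine-aspartate in fibronectin, measured 309, 424 and 295 CPM in the controls and 694, 736 and 556 CPM in iSM KO. It rose by 0.95 ± 0.16 on the log2 scale (adjusted p = 0.00797 in edgeR), without overlap and in all 6 fits that left out a library. Itgav at 0.20, Itgb3 at -0.08, Bmp1, which cleaves the Lox propeptide, at 0.22, and Atp7a, which loads lysyl oxidases with copper, at -0.0027 did not pass. Itga8, another integrin subunit, measured 2537, 2334 and 2052 CPM in the controls and 1896, 1888 and 1717 CPM in iSM KO, without overlap. At -0.33 it did not pass in edgeR (adjusted p = 0.122), but it did in DESeq2 (adjusted p = 0.0250).

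Of 8 tested proteases that can degrade elastin or activate such enzymes, Mmp14 was the 1 that passed, at 0.50 ± 0.13 (adjusted p = 0.0488 in edgeR). Its call was lost without control 1 (0.139), control 3 (0.132), iSM KO 1 (0.164) or iSM KO 2 (0.128). Mmp2, a substrate of Mmp14, measured -0.41 and Mmp12, the macrophage elastase, -0.07, without passing.

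Of 10 tested inhibitors, 2 were higher and 1 lower. Timp4, an inhibitor of metalloproteinases, measured 9.55, 12.5 and 10.7 CPM in the controls and 1.99, 2.46 and 2.57 CPM in iSM KO, far below them. It fell by 2.22 ± 0.17 on the log2 scale (adjusted p = 0.000131 in edgeR) and passed in all 6 fits that left out a library. Timp1 rose by 0.58 ± 0.13 (0.0318), and its call was kept without control 2 (0.0121) and lost without control 1 (0.0948), control 3 (0.0971), iSM KO 1 (0.126), iSM KO 2 (0.114) or iSM KO 3 (0.0565).
Cst3, which encodes cystatin C, an inhibitor of cysteine cathepsins, rose by 0.54 ± 0.12 (0.0252), and its call was lost without control 2 (0.0516), iSM KO 1 (0.0889), iSM KO 2 (0.0869) or iSM KO 3 (0.0689). Timp3, the matrix-bound inhibitor, was at 0.17 and did not pass. Timp2 was higher at 0.33 without overlap and did not pass in edgeR (adjusted p = 0.103), but it did in DESeq2 (adjusted p = 0.0306). Of the 10 log2 fold changes, 7 were above 0 and 3 below.

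**Figure D5:**
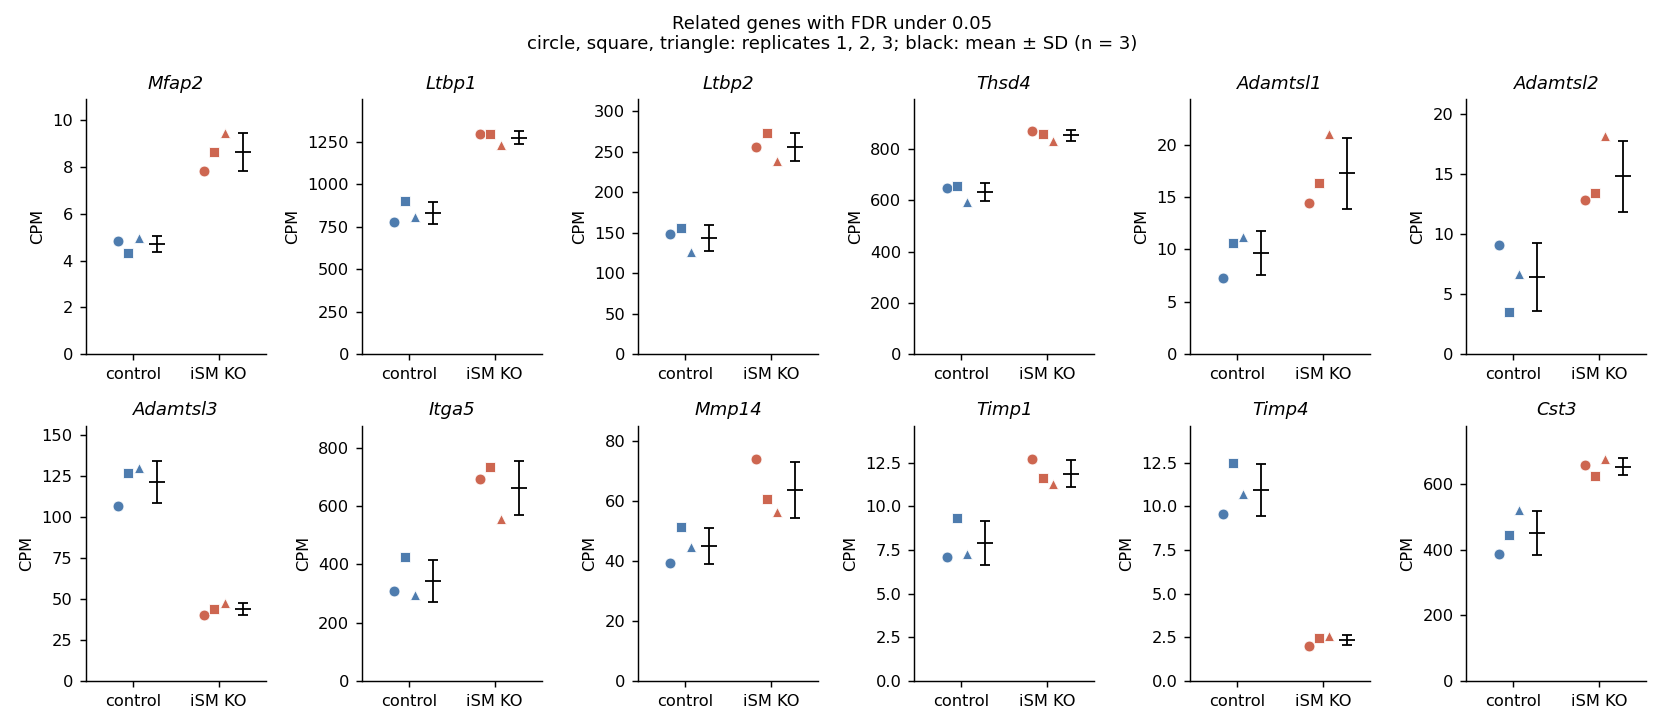
CPM in each library of the 12 related genes with an FDR under 0.05, controls in blue and iSM KO in red, with replicates 1, 2 and 3 as circle, square and triangle and the mean ± SD (n = 3) in black, on axes that start at 0. Adamtsl3 and Timp4 are lower in iSM KO and the other 10 genes higher, and no panel shows overlapping groups. The genes were chosen for their FDR in these same libraries, and the groups did not overlap for 27.9% of all tested genes.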

How the data were processed

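Libraries were made from aortic RNA after depletion of ribosomal RNA. The values the authors deposited are estimated counts per gene, with no normalization, made with Illumina DRAGEN (version not given in the sources used here) from paired reads of 150 bases against Ensembl release 101 (mm10). Whether counting used strand, and how reads matching several genes were divided, is not given in those sources. Exons of Eln, Fbn1, Fbn2, Efemp2, Mfap4 and Lox overlap exons of a gene on the opposite strand by 30 to 2442 bases, so that some of their reads cannot be told apart.

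Counts were rounded. A gene was tested if its count exceeded 10 in every library of the control or the iSM KO group, which is the study's own filter. Groups (3 mice each, separate animals) were compared by the quasi-likelihood test (glmQLFit, then glmQLFTest, without covariates, after TMM scaling) of edgeR 4.0.16, run under R 4.3.3, and Benjamini-Hochberg adjustment over all 16565 tested genes, at an FDR under 0.05. Depth limits chiefly Fbn2. Levels per length used exon unions of GENCODE M21 on GRCm38, and ratios used 0.5 added to each count and an exact permutation test (SciPy 1.17.1). Near-identical transcripts were found with blastn 2.17.0.

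Members and lists were chosen with earlier results of these data known. Named are all members, genes of the lists past the FDR, and Prdm16. Other genes and values were named after their values were seen. Alternatives were DESeq2 1.42.0, limma-voom 3.58.1, other scalings and filters, each library left out, a block for the replicate number, other lengths and pseudocounts.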

Additional observations from a re-analysis of the deposited data

How the results depend on the processing

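Emilin1 kept a negative log2 fold change in every alternative, but its call did not hold with total counts alone (-0.31) or with the replicate number as a block (-0.34, adjusted p = 0.0905 in edgeR), and over the fits that left out a library it ran from -0.37 to -0.30. Fbn1 passed in DESeq2 (-0.38), limma-voom (-0.38), with upper quartile factors (-0.40) and without the filter on low counts (-0.38), and ran from -0.46 to -0.33 over left-out libraries. Lox passed without the filter (-0.52) and ran from -0.72 to -0.32. Mfap4 changed sign with upper quartile factors (-7.9e-05) and ran from -0.16 to 0.14. Eln ran from -0.053 to 0.42 and Loxl1 from -0.016 to 0.11. The number of members called was 2 with DESeq2, limma-voom or upper quartile factors, 3 without the filter, 0 with total counts alone, with the block or with a fold change over 2, and 0 to 2 over left-out libraries. Over all genes 1252 were called, 772 with the block, 461 with a fold change over 2 and 516 to 1402 over left-out libraries.

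The sources used here give no pairing of the mice by replicate number. Deviations of same-numbered libraries correlated at -0.13, -0.05 and -0.11, which cannot settle whether mice were paired. Besides Emilin1, the calls of Thsd4, Mmp14, Timp1 and Ryr2 were lost with the block. The block called 1 adventitial fibroblast and 2 adipocyte markers. The number of proteases called was 0 with limma-voom, upper quartile factors, total counts alone, filterByExpr or the block, 2 without the filter, and 0 to 2 over left-out libraries. For the maturation list it was 2 with DESeq2, for ADAMTS and ADAMTS-like genes 1 to 3 and for inhibitors 1 to 2 over left-out libraries. The Fbln5 to Efemp2 ratio difference ran from -0.49 to 0.050. The causes of these changes were not tested.

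With the longest transcript as length, control means were 1799 TPM for Eln, 162 for Fbn1, 132 for Efemp2, 90.2 for Mfap5 and 429 for Loxl1. Over all genes, short structural RNAs included, they were 133 TPM for Eln, 24.3 for Fbn1, 0.0035 for Fbn2, 35.6 for Fbln5, 14.0 for Efemp2, 34.0 for Emilin1, 87.2 for Mfap4, 9.65 for Mfap5, 10.4 for Lox and 65.6 for Loxl1, in the same order as over protein-coding genes.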
